A study of Homo sapiens with 42 samples.

Results

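Chromatin loops of human chromosome 2 were described along the chromosome in K562 cells, an established human leukemia line, before and during treatment with PMA. The table of the study listed 33914 loops on 23 chromosomes, and all 1681 loops whose first anchor lay on chromosome 2 were taken, which was 4.957% of the total. The chromosome was chosen by the median log2 fold change of its loops at 72 h against 0 h, which was above 0, so every value of 72 h against 0 h for the chromosome as a whole is a description with no test. The study counted contacts by in situ Hi-C, in which DNA ends held near each other by crosslinking are joined and the joints are sequenced. Wild-type K562 cells received 25 nM PMA to induce a megakaryocyte-like state and were taken at 0 h, 6 h and 72 h, with 14 samples and 4 biological replicates per time point. The 0 h cells are the control, and all times share the line and the growth medium, which was changed between 6 h and 72 h. The labels name no clone or passage and do not say whether biological replicates were separate cultures, so the spread between libraries may be partly technical. Contacts carry no expression, so the megakaryocyte-like state could not be checked against marker genes here.

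A chromatin loop brings a pair of distant anchors together. Many loops form when cohesin extrudes DNA until it meets CTCF bound at the anchors, and others join promoters to enhancers. PMA is a phorbol ester that mimics diacylglycerol and activates protein kinase C, and in K562 cells it is widely used to induce megakaryocytic features while erythroid features are lost. Chromosome 2 carries the HOXD cluster of homeobox genes, the homeobox gene MEIS1, the protein kinase C gene PRKCE and the early response genes ID2, NR4A2 and FOSL2.

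The promoters shown here lie in anchors of loops on which the results below turn. The ID2 and TRIB2 promoters lie at the anchors that carried the most tested loops. The promoters of LRATD1, PRKCE and STAT4 lie at loops that were higher at 72 h, and that of ESPNL lies at a loop that was lower. Each is the 250 bases before the start site in RefSeq GRCh38.p14, 5′ to 3′ on the strand of the gene. Capitals mark matches on either strand to an AP-1 motif (TGANTCA), the binding motif of GATA factors (AGATAA), the core of the CTCF motif, a CCAAT box (CCAAT) and a GC box (GGGCGG). Neighbouring GC boxes can overlap and then form 1 run of capitals. All 6 genes matched the RefSeq promoter table.
ID2, chr2:8681806-8682055, plus strand: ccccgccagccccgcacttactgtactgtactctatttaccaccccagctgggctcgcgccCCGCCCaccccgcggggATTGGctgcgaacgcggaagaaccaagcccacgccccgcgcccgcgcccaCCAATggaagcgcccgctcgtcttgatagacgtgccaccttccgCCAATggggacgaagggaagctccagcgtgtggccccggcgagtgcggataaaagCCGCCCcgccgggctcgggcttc
TRIB2, chr2:12716686-12716935, plus strand: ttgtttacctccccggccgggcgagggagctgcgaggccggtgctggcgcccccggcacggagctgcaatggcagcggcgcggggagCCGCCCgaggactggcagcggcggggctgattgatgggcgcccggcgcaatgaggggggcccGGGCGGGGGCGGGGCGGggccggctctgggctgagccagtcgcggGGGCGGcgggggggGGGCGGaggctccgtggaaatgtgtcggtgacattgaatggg
LRATD1, chr2:14632467-14632716, plus strand: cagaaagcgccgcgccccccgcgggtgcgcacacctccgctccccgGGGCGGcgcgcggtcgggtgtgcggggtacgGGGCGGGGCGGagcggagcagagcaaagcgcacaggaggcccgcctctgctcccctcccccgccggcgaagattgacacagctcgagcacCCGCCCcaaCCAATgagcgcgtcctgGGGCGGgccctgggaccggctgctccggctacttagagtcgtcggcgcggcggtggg
PRKCE, chr2:45651425-45651674, plus strand: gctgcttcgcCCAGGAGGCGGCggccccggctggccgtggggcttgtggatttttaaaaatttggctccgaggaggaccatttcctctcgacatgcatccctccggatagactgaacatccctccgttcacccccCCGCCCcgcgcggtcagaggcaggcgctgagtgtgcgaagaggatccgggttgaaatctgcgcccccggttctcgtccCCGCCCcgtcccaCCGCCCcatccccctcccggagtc
STAT4, chr2:191151597-191151846, minus strand: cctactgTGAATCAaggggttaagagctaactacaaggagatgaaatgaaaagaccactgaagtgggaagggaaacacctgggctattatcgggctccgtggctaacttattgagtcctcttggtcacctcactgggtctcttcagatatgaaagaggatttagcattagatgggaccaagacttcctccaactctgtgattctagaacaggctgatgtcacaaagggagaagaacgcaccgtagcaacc
ESPNL, chr2:238100090-238100339, plus strand: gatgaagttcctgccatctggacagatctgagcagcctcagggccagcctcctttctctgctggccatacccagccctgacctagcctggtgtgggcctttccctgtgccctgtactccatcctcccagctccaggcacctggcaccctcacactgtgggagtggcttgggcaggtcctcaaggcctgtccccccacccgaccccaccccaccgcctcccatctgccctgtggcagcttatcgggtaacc

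The 4 promoters of ID2, TRIB2, LRATD1 and PRKCE were rich in G and C and the other two were less so. The share of G and C was 69.2% in ID2, 76.8% in TRIB2, 76.0% in LRATD1, 66.4% in PRKCE, 64.0% in ESPNL and 46.8% in STAT4. TRIB2 held 6 GC boxes, LRATD1 held 5, PRKCE held 3 and ID2 held 2, while the STAT4 and ESPNL windows held none. ID2 had 3 CCAAT boxes and LRATD1 had 1. A match to the CTCF core stood in PRKCE alone and a match to the AP-1 motif in STAT4 alone, among these 6 windows. Of 35114 RefSeq promoters of the same length, 42.64% held a GC box, 32.01% a CCAAT box, 9.167% a GATA motif, 6.573% an AP-1 motif and 4.013% a CTCF core. A match describes the letters of the window and is not a bound site.

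Contacts in all loops ranged from 736929 to 1472197 per library after technical replicates were summed, and contacts in chromosome 2 loops from 39097 to 74873. The 72 h replicates 3 and 4 differed by less than the sampling noise (chi-square test over loops, 1.003 for each degree of freedom with a p of 0.367) and were counted as 1 sample in each mean and SD, so n = 3 at 72 h and n = 4 at 0 h and 6 h. The fits kept both as libraries, and with them summed into 1 library 74, 461 and 339 chromosome 2 loops passed in the comparisons given below as 74, 465 and 350. The tested chromosome 2 loops had a median count of 29.25 contacts per library, and for a count of 29 the exact 95% Poisson interval runs from 19.42 to 41.65, which covers counting error only. Replicates 1 and 2 had other numbers of technical replicates and sequencing runs than replicates 3 and 4, so values within each of these pairs are given beside the pooled ones.

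The loops of chromosome 2 took a growing share of all loop contacts. At 0 h the share was 5.086%, 5.192%, 5.102% and 5.083% in replicates 1 to 4. At 6 h it was 5.325%, 5.321%, 5.305% and 5.326%. At 72 h it was 5.584%, 5.532%, 5.519% and 5.505%. The means were 5.12% ± 0.0516 (SD, n = 4), 5.32% ± 0.00972 (SD, n = 4) and 5.54% ± 0.0371 (SD, n = 3), and no library of one time reached into the range of another. Loops over 800 kb moved with it: they held 4.90% ± 0.198 of the chromosome 2 contacts at 0 h, 5.74% ± 0.186 at 6 h and 7.34% ± 0.0709 at 72 h (SD, n = 4, 4 and 3). The share held by loops of at most 200 kb was 52.4% ± 0.584, 50.03% ± 0.911 and 48.7% ± 0.663 over the same times.

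**Figure D1:**
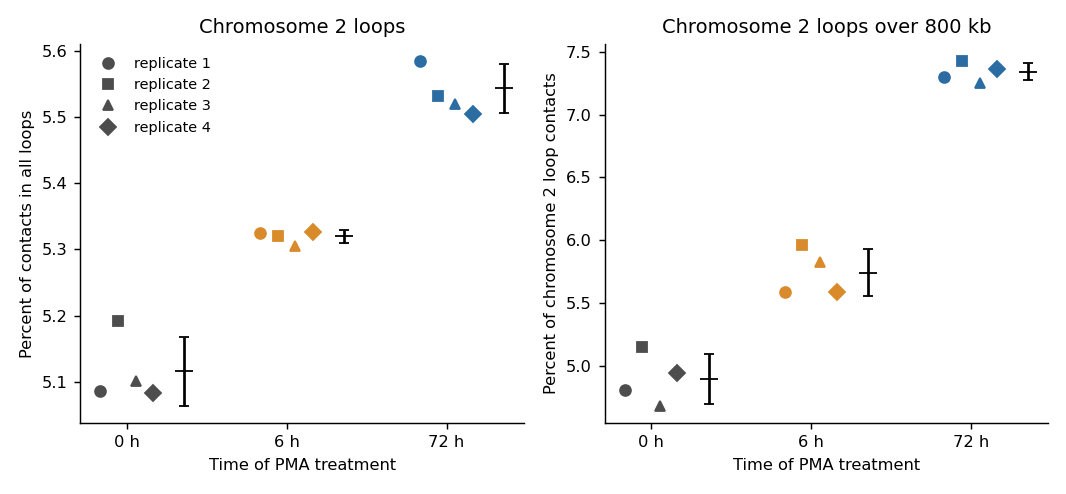
Share of contacts by library at 0 h, 6 h and 72 h of PMA. The left panel plots contacts in chromosome 2 loops as a percent of contacts in all loops, and the right panel contacts in chromosome 2 loops over 800 kb as a percent of all chromosome 2 loop contacts. Points are libraries, and dashes with bars are mean ± SD with the 72 h replicates 3 and 4 averaged first. The axes do not start at 0. The left panel runs from 5.083% to 5.584% and the right from 4.686% to 7.424%, with no overlap between times in either.

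Of the 1681 loops, 1435 had enough counts for edgeR's quasi-likelihood test, which ran over 24132 loops of all chromosomes, and 246 did not. The loops left out were long, with a median length of 1110 kb, so the tested loops under-represent long ones. The filter on low counts can be passed through the libraries of a single time. A loop with low counts can thus be tested because it is high at that time. At 6 h against 0 h, 74 chromosome 2 loops passed an adjusted p of 0.05, 42 higher and 32 lower, against 6.41% of all tested loops (2.34% higher and 4.07% lower). In chromosome 2 the shares were 2.93% higher and 2.23% lower. The median log2 fold change over the tested loops was 0.08 on chromosome 2 and 0.01 over all loops, and it was 0.06 within replicates 1 and 2 and 0.06 within replicates 3 and 4. Within these pairs 24 loops (11 higher and 13 lower) and 10 loops (4 and 6) passed. The count fell to 28 without 0 h replicate 1 (10 higher and 18 lower) and to 35 without 6 h replicate 2 (20 and 15). With libraries scaled to their total count the split was 52 higher and 20 lower. It turned to more lower than higher in DESeq2 (7 and 14), with no filter on low counts (32 and 37), at a threshold of 0.01 (10 and 12), without 0 h replicate 2 (31 and 35), without 6 h replicate 3 (31 and 32) and without 6 h replicate 4 (27 and 37), so neither direction held the most calls in every setting.

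At 72 h against 0 h, the contrast by which the chromosome was chosen, 465 chromosome 2 loops passed, 329 higher and 136 lower, beside 33.6% of all tested loops (16.7% higher and 16.9% lower). The shares on chromosome 2 were 22.9% higher and 9.48% lower. The median log2 fold change was 0.14 on chromosome 2 and 0.01 over all loops. It was 0.13 within replicates 1 and 2 and 0.13 within replicates 3 and 4, where 304 and 207 loops passed. Among 23 chromosomes the median of chromosome 2 ranked the second, below chromosome 5 at 0.17 and above chromosome 8 at 0.12. At 6 h it ranked the first, at 0.08 before chromosome 8 at 0.05 and chromosome 5 at 0.05. Between 6 h and 72 h, a contrast which shares the 72 h libraries with the contrast of choice, 350 loops passed, 213 higher and 137 lower, against 20.5% of all tested loops (10.7% higher and 9.81% lower). The median was 0.09 on chromosome 2 and 0.00 over all loops, and 170 and 99 loops passed within the replicate pairs. DESeq2 called 279 loops at 72 h against 0 h and 134 between 6 h and 72 h.

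Change went with loop length on chromosome 2. At 72 h against 0 h the median log2 fold change was -0.04 over 165 loops of up to 100 kb, 0.07 over 298 of 100 to 200 kb, 0.15 over 436 of 200 to 400 kb and 0.17 over 373 of 400 to 800 kb. It was 0.54 over 139 loops of 800 to 1600 kb and 0.62 over 24 longer ones. Loops of these lengths had low counts, and the filter could keep them through high counts at 72 h. Their medians and calls therefore describe the kept loops only, and how much the filter added was not tested. The medians over all chromosomes were -0.18, -0.09, -0.01, 0.11, 0.33 and 0.57 in the same order, each below that of chromosome 2. Of the 139 chromosome 2 loops of 800 to 1600 kb, 63 were called higher (45.3%) and 1 lower (0.719%). Over all chromosomes the shares at this length were 28.9% and 2.14%. Of the shortest 165 on chromosome 2, 28 were called higher (17.0%) and 35 lower (21.2%), beside 12.4% and 36.25% over all chromosomes. The chromosome 2 median of the shortest class turned to 0.01 under scaling to the total count. At 6 h against 0 h the chromosome 2 medians were -0.03, 0.03, 0.09, 0.13, 0.18 and 0.05 from the shortest to the longest class, and no loop over 1600 kb passed. The value of the longest class turned to -0.04 without 0 h replicate 3 and was 0.17 without 0 h replicate 2 and 0.12 without 0 h replicate 1. It was also below 0 within replicates 1 and 2 (-0.03) and with an offset for loop length (-0.05). Lower calls at 6 h lay among short loops: 9 were of up to 100 kb, 15 of 100 to 200 kb, 7 of 200 to 400 kb, 0 of 400 to 800 kb and 1 of 800 to 1600 kb. Over all chromosomes the shares of tested loops called lower were 13.99%, 6.584%, 1.997%, 0.6067% and 0.4582% in this order. On chromosome 2 they were 5.455%, 5.034%, 1.606%, 0% and 0.7194%. Longer loops also had lower counts, with a median normalized count of 69.8 below 100 kb and 10.9 above 1600 kb. Normalized counts are contacts per 1000000 contacts in tested loops after TMM scaling. With an offset for loop length in each library, the 72 h medians from the shortest to the longest class were 0.07, 0.11, 0.14, 0.07, 0.21 and 0.19 on chromosome 2. With that offset the median of the whole chromosome was 0.12 at 72 h and 0.06 at 6 h, against -0.02 and 0.00 over all loops.

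**Figure D2:**
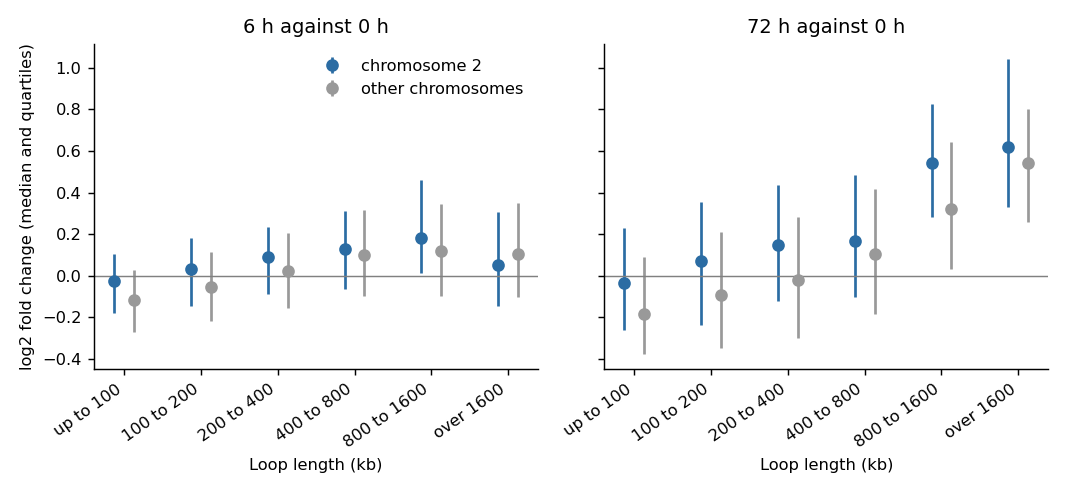
Median log2 fold change by loop length at 6 h (left) and 72 h (right) against 0 h, for tested loops of chromosome 2 (blue) and of the other chromosomes (grey). Bars span the quartiles over loops. At 72 h the chromosome 2 median goes from -0.04 in loops of up to 100 kb to 0.62 in loops over 1600 kb, and the other chromosomes from -0.19 to 0.54.

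Along the chromosome the higher loops were spread over most windows. Loops were put into windows of 10 Mb by their midpoint, and 23 windows of 25 held at least 20 tested loops. The median at 72 h was above 0 in 20 of them, in 18 of them within both replicate pairs, and loops called higher outnumbered those called lower in 19. At 6 h the median was above 0 in 21. Over the other settings tried, between 18 and 22 windows were above 0 at 72 h and between 18 and 23 at 6 h. The highest medians at 72 h lay on the long arm. The window from 160 to 170 Mb had a median of 0.46 over 47 loops, with 21 called higher and 5 lower. The window from 150 to 160 Mb had 0.43 over 76 loops, with 33 higher and 2 lower, and that from 180 to 190 Mb had 0.41 over 39 loops, with 11 higher and 1 lower. With the length offset these 3 medians were 0.21, 0.30 and 0.27, and the highest was 0.33 in the window from 130 to 140 Mb, so the order depends on that offset. Within replicates 3 and 4 the window from 180 to 190 Mb had 0.22. The window from 170 to 180 Mb, between these, had 0.12 over 102 loops, with 27 higher and 13 lower. The lowest medians lay at 60 to 70 Mb, with -0.08 over 92 loops (8 higher and 18 lower), at 90 to 100 Mb, with -0.01 over 47 loops, and at 20 to 30 Mb, with -0.00 over 67 loops. The quartiles of every window overlapped those of its neighbours. At 6 h the highest medians were 0.25 in the window from 0 to 10 Mb and 0.21 in that from 220 to 230 Mb, where the 72 h medians were 0.29 and 0.22.

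**Figure D3:**
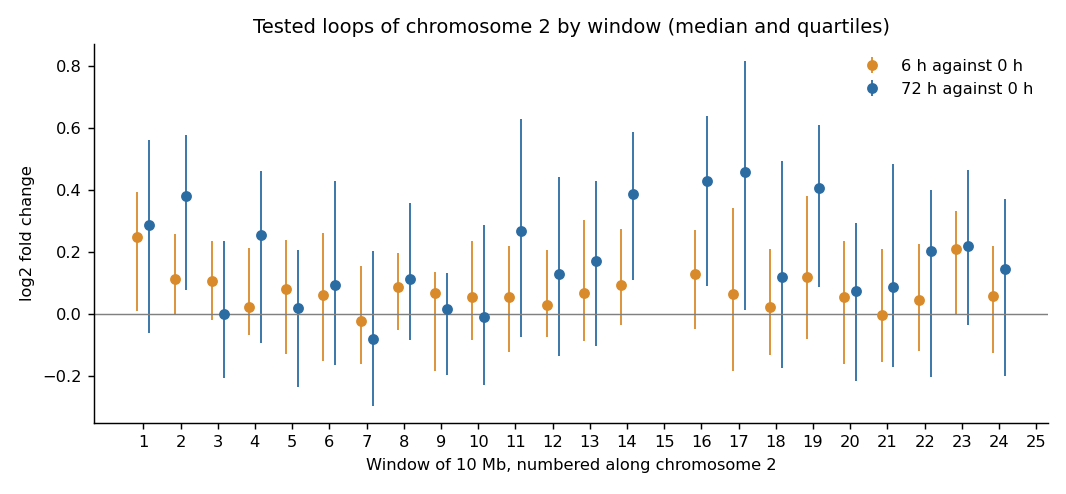
Median log2 fold change of tested chromosome 2 loops at 6 h (orange) and 72 h (blue) against 0 h in windows of 10 Mb numbered from the start of the chromosome, with bars over the quartiles of the loops. Windows with fewer than 20 tested loops are not drawn. The windows numbered 16, 17 and 19 have 72 h medians of 0.43, 0.46 and 0.41, and the window numbered 7 has -0.08.

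Windows with longer loops had higher medians. Over the 23 windows the Spearman correlation of the 72 h median with the median loop length was 0.71, and 0.64 after the length offset. It was -0.47 with the number of protein-coding genes and -0.60 with the median normalized count. The windows share their libraries, and their lengths, counts and gene numbers go together, so these correlations are descriptions of 23 points. The 3 highest windows held 46, 35 and 32 protein-coding genes with median loop lengths of 450 kb, 525 kb and 360 kb. The 3 lowest held 54, 66 and 95, with median lengths of 285 kb, 260 kb and 210 kb.

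A start site of a protein-coding gene lay in an anchor of 58 of 329 loops called higher at 72 h (17.6%), 39 of 136 called lower (28.7%) and 164 of 970 not called (16.9%). Loops called lower were also shorter, with a median length of 170 kb against 370 kb in those called higher. Within length classes the difference was not of 1 kind. Loops of up to 100 kb had a 72 h median of -0.07 with a start site and -0.03 without, those of 200 to 400 kb had 0.07 and 0.16, and those of 400 to 800 kb had 0.26 and 0.16. At 6 h against 0 h, 6 of 42 loops called higher (14.3%) and 9 of 32 called lower (28.1%) had a start site in an anchor. Between 6 h and 72 h it was 40 of 213 loops called higher (18.8%) and 26 of 137 called lower (19.0%), so the gap was not seen in that contrast. The promoters at these anchors were searched for the same motifs, and 1 promoter can serve loops of more than 1 class. Of 107 promoters at loops higher at 72 h, 13 held a GATA motif (12.15%) and 7 an AP-1 motif (6.542%). Of 66 at loops that were lower, 2 and 6 did (3.03% and 9.091%). Of 255 at loops not called, it was 15 and 14 (5.882% and 5.49%). Over all chromosome 2 promoters the shares were 9.37% and 6.259%. For the CTCF core they were 4.673%, 1.515% and 6.275% at loops higher, lower and not called. In the same order a CCAAT box had 35.51%, 27.27% and 30.59%, and a GC box 42.06%, 51.52% and 47.84%. The counts are small, and the differences were not tested.

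The largest rises at 72 h lay in long loops with no gene end in either anchor. Their 0 h counts were low, and the filter could keep such loops through their 72 h counts. Loop3952 joined anchors of 10 kb that start at 103160001 and 104940001 and spans 1780 kb. Its normalized counts were 5.07, 5.70, 6.27 and 3.41 at 0 h, 7.84, 10.3, 7.08 and 13.3 at 6 h, and 21.2, 23.1, 30.2 and 16.1 at 72 h. The 3 times did not overlap. Its log2 fold change at 72 h was 1.78 ± 0.27 (SE). Loop3949 ended at the same anchor and spans 2090 kb, and it went from 6.43 ± 1.05 at 0 h and 6.07 ± 2.65 at 6 h to 16.8 ± 2.43 at 72 h (SD). Its log2 fold change at 72 h was 1.21 ± 0.27 (SE), or 0.75 with an offset for loop length.

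The next largest rises shared the anchor that starts at 155370001, which holds no gene. It carried 4 tested loops of 810 kb to 1820 kb, all called higher at 72 h, and was singled out after the values were seen. Loop4212, of 1820 kb, had 8.69, 5.70, 5.02 and 6.82 at 0 h, 11.8, 5.61, 14.1 and 12.1 at 6 h, and 31.0, 24.1, 18.7 and 22.3 at 72 h. Its 72 h libraries lay above all others, and its log2 fold change at 72 h was 1.57 ± 0.25 (SE). Loop4210, of 1520 kb, rose by 1.47 ± 0.27 and loop4208, of 810 kb, by 1.01 ± 0.30. Loop4211, of 1690 kb, had 0.72 ± 0.28, and its 72 h libraries overlapped those of 0 h. It missed the threshold without 0 h replicate 1, 0 h replicate 3 or 72 h replicate 1, at 0.58, 0.67 and 0.41, and with the length offset, at 0.30 for loop4211.

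Other large rises had a gene at an anchor. Loop3342 joined the start of LRATD1, which encodes a protein with an LRAT domain and whose promoter is rich in GC boxes, to an anchor 260 kb away inside NBAS, a gene of transport between Golgi and endoplasmic reticulum. Its counts were 14.5, 14.2, 5.02 and 14.8 at 0 h, 14.7, 22.4, 14.2 and 14.5 at 6 h, and 30.1, 35.1, 38.5 and 35.7 at 72 h. All 72 h libraries were above all earlier ones, with a log2 fold change of 1.33 ± 0.21 (SE) at 72 h. Loop4278 joined the end of the non-coding LINC01806 to SLC4A10, which encodes a bicarbonate transporter, and had 1.35 ± 0.28. Loop3990 joined the end of LINC02992 to DPP10, which encodes a subunit of potassium channels. It had 9.38 ± 2.05 at 0 h, 8.56 ± 3.24 at 6 h and 25.0 ± 2.99 at 72 h (SD), and 1.26 ± 0.24. Loop4443, with an anchor in the phosphatase inhibitor gene PPP1R1C, had 1.26 ± 0.33, and its 72 h libraries overlapped those of 6 h. Loop3366, a loop of 1590 kb with no gene at an anchor, had 1.26 ± 0.32 at low counts of 3.26 ± 1.44 at 0 h and 11.2 ± 1.04 at 72 h (SD).

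The 6 largest falls at 72 h lay in loops of 180 kb to 1040 kb. Loop4502, of 240 kb with no gene at an anchor, had 42.0, 42.7, 35.1 and 37.5 at 0 h, 37.3, 40.2, 38.2 and 30.2 at 6 h, and 16.8, 17.1, 19.8 and 13.4 at 72 h. The 0 h and 6 h libraries overlapped and the 72 h libraries lay below both, with -1.17 ± 0.19 (SE). Loop4890 joined the body of RAMP1, which encodes an accessory protein of receptors of the calcitonin family, to the start of ESPNL, an espin-like gene, 240 kb away. It had 39.8, 30.4, 32.6 and 30.7 at 0 h, 33.3, 39.3, 32.5 and 28.9 at 6 h, and 15.9, 14.1, 12.5 and 15.2 at 72 h. Here too 0 h and 6 h overlapped and 72 h was lower, with -1.12 ± 0.20 (SE). Loop3621, with an anchor in the beta spectrin gene SPTBN1, fell from 105 ± 6.07 at 0 h to 79.6 ± 9.85 at 6 h and 48.3 ± 3.46 at 72 h (SD), and the 3 times did not overlap. Its fold change was -1.04 ± 0.13 at 72 h and -0.39 ± 0.12 at 6 h (adjusted p 0.03 in edgeR). The 6 h call missed the threshold without any 1 of 0 h replicates 3 and 4 and 6 h replicates 1 and 2, with adjusted p of 0.08222, 0.05266, 0.1488 and 0.06773 in that order, and loop3621 missed it with the length offset at 0.05781, with total count scaling at 0.05444 and in DESeq2 at 0.0902. Loop3890, with an anchor in FAM178B, had -1.01 ± 0.20 and loop4869, of 1040 kb, had -0.94 ± 0.31. Loop4869 missed the threshold without 0 h replicate 2, at -0.74, or 72 h replicate 1, at -0.79.

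PRKCE, which encodes a protein kinase C isoform that phorbol esters bind, held loops that went opposite ways. Loop3568 spans 50 kb from the start of the gene into its body. Its counts were 65.9, 62.7, 55.2 and 59.1 at 0 h, 65.7, 82.2, 80.7 and 74.8 at 6 h, and 111, 104, 108 and 99.98 at 72 h. The 72 h libraries lay above all others, and those of 6 h and 0 h overlapped at 1 library. The log2 fold change was 0.76 ± 0.12 (SE) at 72 h and 0.29 ± 0.13 at 6 h (adjusted p 0.1815). Loop3574 joined a later part of the PRKCE body to an anchor 760 kb away that holds no gene. It had 14.5, 15.2, 25.1 and 21.6 at 0 h, 21.6, 20.6, 26.9 and 20.5 at 6 h, and 7.08, 5.02, 7.28 and 8.93 at 72 h. All 72 h libraries were below all earlier ones, with -1.15 ± 0.26 (SE) at 72 h against 0 h.

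**Figure D4:**
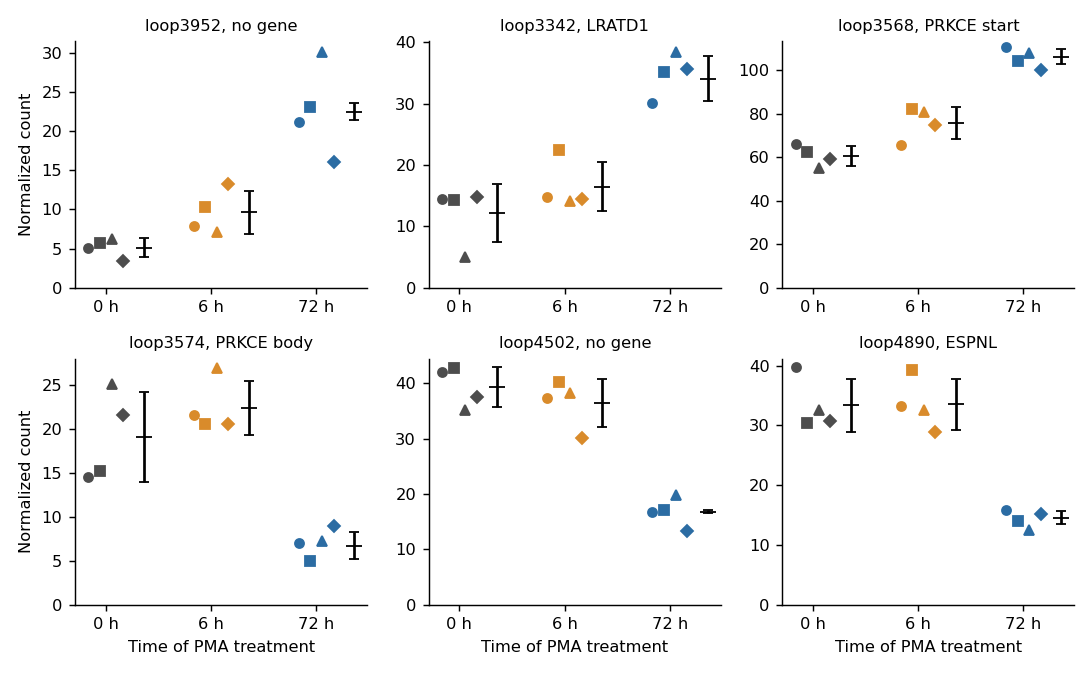
Normalized counts of 6 chromosome 2 loops by library at 0 h, 6 h and 72 h. Symbols stand for replicates 1 to 4 (circle, square, triangle, diamond), and dashes with bars are mean ± SD with the 72 h replicates 3 and 4 averaged first. Loop3952, loop3342 and the PRKCE start loop3568 are highest at 72 h, and the PRKCE body loop3574, loop4502 and the ESPNL loop4890 are lowest at 72 h, at means of 6.73, 16.8 and 14.6.

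The contrast of 6 h against 0 h shares the 0 h libraries with that of choice. Loop4574, of 40 kb, joined the ends of CASP10, which encodes an initiator caspase. It fell from 170, 127, 159 and 171 at 0 h to 111, 93.5, 105 and 89.3 at 6 h, and had 121, 108, 120 and 85.7 at 72 h. All 6 h libraries were below all 0 h libraries, with -0.65 ± 0.11 (SE, adjusted p 1.456e-05 in edgeR), and the call held in every setting that tested it. Loop3731, of 170 kb with no protein-coding gene end at an anchor, fell from 59.5 ± 7.23 to 36.5 ± 6.87 (SD, n = 4), by 0.66 ± 0.15 on the log2 scale (adjusted p 0.002609). Loop4562, with an anchor at SPATS2L, had 21.7, 37.0, 46.4 and 47.8 at 0 h and 23.5, 24.3, 17.0 and 12.1 at 6 h. It fell by 0.81 ± 0.20 (adjusted p 0.004332), with -0.24 within replicates 1 and 2 and -1.57 within replicates 3 and 4, so the sizes differed between the pairs. At 72 h it had 44.2, 43.2, 43.7 and 34.8.

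Loop4161, a loop of 1160 kb, fell from 13.6 ± 2.16 to 6.62 ± 2.25 at 6 h (SD, n = 4), with -0.90 ± 0.29 (SE, adjusted p 0.03768 in edgeR), and had 15.8 ± 1.83 at 72 h. That call missed the threshold without 0 h replicates 1, 3 or 4 or 6 h replicates 1 or 2, with adjusted p from 0.0635 to 0.1513, and loop4161 missed it with total count scaling at 0.05056.

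The largest rise at 6 h was in loop4764, of 700 kb, with an anchor in AP1S3, which encodes a subunit of a clathrin adaptor complex. It had 4.35, 7.60, 5.02 and 7.96 at 0 h, 11.8, 13.1, 12.7 and 24.1 at 6 h, and 7.08, 9.04, 6.24 and 10.7 at 72 h. The 6 h libraries were above all others, with 1.09 ± 0.29 (SE, adjusted p 0.01034 in edgeR). The filter could keep loop4764 through its 6 h counts, so this separation is a description. Without 6 h replicate 4, its highest library, the adjusted p was 0.1115, and without 0 h replicate 1 it was 0.08545. Loop3803, with an anchor in the bicarbonate transporter gene SLC4A5, rose from 13.3 ± 4.09 to 27.3 ± 8.07 (SD, n = 4), by 0.94 ± 0.22 (SE, adjusted p 0.002719), or 0.06402 without 6 h replicate 2. Loop4073, of 390 kb, rose by 0.89 ± 0.24 (adjusted p 0.009984), or 0.05354 without 0 h replicate 1 and 0.1556 without 6 h replicate 2. DESeq2 gave no adjusted p for loop4562, loop4161, loop4764, loop3803, loop4073 and loop3274, which its own filter on low counts left out. All 8 loops named for 6 h had the same direction in replicates 1 and 2 and in replicates 3 and 4. They were chosen by their values over these same libraries, which favours a shared direction, so this is a description.

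Between 6 h and 72 h the largest rises were in loop3990 at DPP10, with 1.33 ± 0.25 (SE, adjusted p 2.204e-05 in edgeR), loop3949, with 1.31 ± 0.28 (adjusted p 0.0002855), and loop4208, with 1.29 ± 0.32 (adjusted p 0.001831). The largest falls were in loop3574 of the PRKCE body, with -1.40 ± 0.25 (adjusted p 1.281e-05), loop3890, with -1.29 ± 0.19 (adjusted p 1.116e-07), and loop4890 at ESPNL, with -1.12 ± 0.20 (adjusted p 1.194e-05). The 72 h libraries of all 6 loops lay outside the range of the 6 h libraries, and 5 of the 6 could be tested in both replicate pairs and kept their direction in them. The 6 loops were chosen by their values over these same libraries, which favours both results. The filter could also keep loop3949 and loop4208 through their 72 h counts.

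Of 2055 anchors of tested chromosome 2 loops, 567 had 2 or more loops and 52 had 4 or more. Among calls of 72 h against 0 h, 139 pairs of called chromosome 2 loops shared an anchor, and 122 of them had the same direction (87.8%), near the 86.7% over all chromosomes. Between 6 h and 72 h it was 67 of 86 pairs (77.9%), beside 85.4%, and at 6 h against 0 h 1 of 3 pairs (33.3%), beside 71.9%.

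The anchor of the ID2 start, which begins at 8680001, had loops called in both directions. ID2 encodes an inhibitor of basic helix-loop-helix factors, and its promoter held 3 CCAAT boxes. All 7 tested loops of this anchor reached upstream of the gene, over 160 kb to 1570 kb. The shortest, loop3285, was by far the strongest, with 157, 131, 177 and 149 at 0 h, 110, 90.7, 113 and 118 at 6 h, and 130, 83.3, 99.8 and 107 at 72 h. All 6 h libraries were below all 0 h libraries, with -0.51 ± 0.11 (SE, adjusted p 0.001032 in edgeR), and at 72 h the value was -0.52 ± 0.11. The longest, loop3272, had 7.24, 5.70, 8.78 and 10.2 at 0 h, 7.84, 9.35, 11.3 and 7.24 at 6 h, and 15.0, 21.1, 16.6 and 17.9 at 72 h, all of the latter above the rest, with 1.00 ± 0.26 (SE) at 72 h. The filter could keep loop3272 through its 72 h counts.

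Between these lengths the 72 h values were -0.07 ± 0.18 (SE) in loop3283, of 390 kb, 0.73 ± 0.22 in loop3282, of 600 kb, 0.26 ± 0.21 in loop3281, of 680 kb, and 0.99 ± 0.20 in loop3276, of 1260 kb. Loop3274, of 1480 kb, was among the largest rises at 6 h, with 5.58 ± 1.81 at 0 h and 12.4 ± 4.40 at 6 h (SD, n = 4), 0.97 ± 0.31 and an adjusted p of 0.03704 in edgeR. Without 0 h replicate 1 or 4 or 6 h replicate 2 or 3 the adjusted p was 0.1893, 0.08248, 0.2189 and 0.09734. At 72 h it had 0.78 ± 0.31, a call that missed the threshold without 0 h replicates 1 or 4 or 72 h replicates 1 or 4. With the length offset loop3276 had 0.61 at 72 h and stayed called, loop3272 had 0.59 and loop3274 0.41 and neither was called, nor was loop3274 at 6 h (adjusted p 0.07823). Without that offset, 4 loops of the ID2 anchor were called higher and 1 lower at 72 h.

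The TRIB2 anchor begins at 12710001. TRIB2 encodes a pseudokinase of the Tribbles family. Its anchor had the most tested loops, 8, and the 72 h values lay between 0.08 and 0.52. Only loop3336 among the 8, the shortest at 160 kb, was called at 72 h, with 0.52 ± 0.14 (SE). Loop3325, of 850 kb, had 19.6, 19.0, 20.1 and 19.3 at 0 h, 32.4, 28.0, 39.6 and 36.2 at 6 h, and 21.2, 13.1, 21.8 and 25.9 at 72 h. Its 6 h libraries were above all others. It rose by 0.72 ± 0.20 at 6 h (adjusted p 0.01158 in edgeR), and was -0.64 ± 0.19 at 72 h against 6 h (adjusted p 0.009731, or 0.07004 without 72 h replicate 2). With the length offset loop3325 had 0.60 at 6 h and was not called. From 6 h to 72 h 4 other loops of the TRIB2 anchor were called higher, loop3321 (0.53), loop3326 (0.74), loop3336 (0.44) and loop3337 (0.59), with a median of 0.32 over the 8 loops, and at the ID2 anchor 2 loops were called higher, with a median of 0.25 over 7. Without 6 h replicate 2 the calls of loop3321, loop3326 and loop3336 missed the threshold, at 0.47, 0.53 and 0.29, as did that of loop3276 at the ID2 anchor, at 0.49. Each of these calls also missed it when some single 72 h library was left out. In DESeq2 they missed it too, as did the fall of loop3325 and the rise of loop3272 at the ID2 anchor. The length offset ended the calls of loop3321, loop3272 and loop3276 in this contrast. The anchor that begins at 71540001, inside the dysferlin gene DYSF, had 6 tested loops of 250 kb to 1320 kb, as did 3 other anchors. Its 72 h values ran from -0.02 to 0.76, and the highest, loop3778, reached into the exocyst gene EXOC6B and was not called with the length offset, at 0.44.

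**Figure D5:**
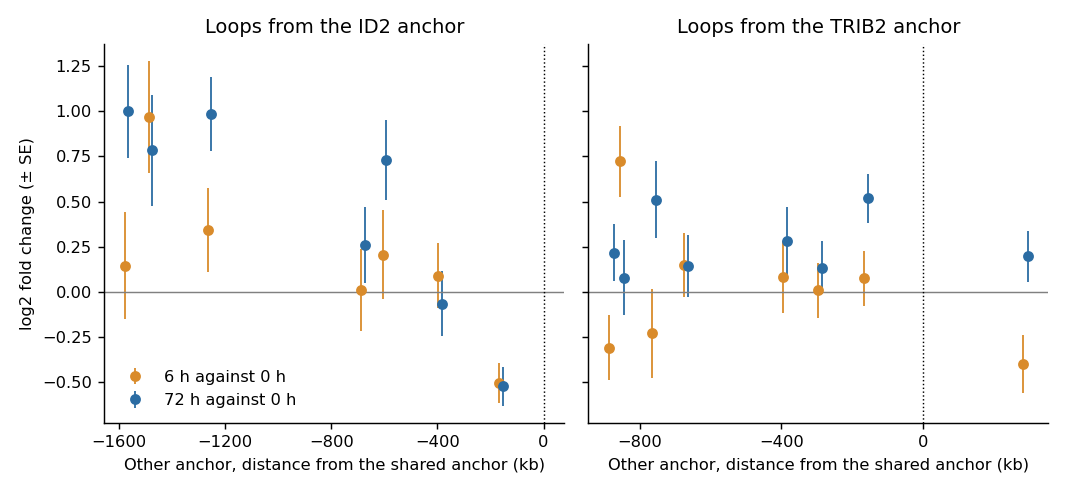
Log2 fold change ± SE at 6 h (orange) and 72 h (blue) against 0 h for the tested loops of the ID2 anchor (left, 7 loops) and the TRIB2 anchor (right, 8 loops), by the distance in kb from the shared anchor to the other anchor. Negative distances lie towards the chromosome start. The ID2 loop of 160 kb has -0.52 at 72 h and those of 1260 kb and more have 0.78 to 1.00.

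Gene lists were read through loops with an end of a listed gene in an anchor. The filter could keep a listed loop of low counts through its high counts at 1 time. The shares called in each list therefore describe the kept loops only. Of 15 megakaryocyte and platelet genes, 6 had such a loop, with 9 loops. At 72 h 4 were called higher and 1 lower (55.6%, beside 33.6% of all tested loops), with a median of 0.20 beside 0.14 over the chromosome and 0.01 over all loops, and at 6 h none was called, beside 4 at an unadjusted p under 0.05 in edgeR. Besides PRKCE, loop3468 of EHD3, an endocytic recycling gene, had 44.2, 46.5, 40.1 and 45.5 at 0 h and 67.2, 68.3, 65.5 and 64.3 at 72 h, with no overlap and 0.56 ± 0.14 (SE). Loop3734 of PLEK, which encodes the platelet kinase substrate pleckstrin, had 139 ± 16.7 at 0 h and 109 ± 10.1 at 72 h (SD), with -0.36 ± 0.11. Loops of LTBP1 and CAVIN2 had -0.02 ± 0.13 and 0.18 ± 0.19. MEIS1, a homeobox gene of megakaryocyte development, had 4 loops, of which loop3716 (0.80 ± 0.30) and loop3722 (0.33 ± 0.12) were called higher. Loop3716 had low counts of 6.29 ± 1.57 at 0 h, 5.40 ± 3.15 at 6 h and 12.4 ± 2.35 at 72 h (SD). The filter could keep it through its 72 h counts. Loop3716 missed the threshold without 0 h replicates 1 or 4 or 72 h replicate 2, at 0.64, 0.77 and 0.70. Loop3722 missed it without 0 h replicates 2 or 3 or 72 h replicates 1 or 2, at 0.28, 0.26, 0.31 and 0.28.

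Of 6 erythroid genes 2 had a loop, STEAP3, a ferrireductase gene, with -0.00 ± 0.18 and ABCB6, a porphyrin transporter gene, with -0.32 ± 0.14 at 72 h, and neither was called at any time. Of 20 immediate early, AP-1 and signalling genes 12 had a loop, with 27 loops. At 72 h 8 of these were called higher and 2 lower (37.0%, near the 33.6% over all tested loops), with a median of 0.13. At 6 h 1 was called higher and 1 lower (7.41%, near the 6.41% over all), the ID2 loops above. The lower ones at 72 h were loop3285 of ID2 and loop3395 of RHOB, a small GTPase gene, with -0.27 ± 0.10 (SE), which missed the threshold without 0 h replicates 2 or 4 or 72 h replicates 1 or 2, at -0.26, -0.26, -0.23 and -0.21. Loop4632 of the factor gene KLF7 went from 11.8 ± 5.51 at 0 h over 19.3 ± 4.75 at 6 h to 26.7 ± 4.61 at 72 h (SD), with 0.95 ± 0.22 (SE). Loop4493 lies within STAT4, a gene of cytokine signalling whose promoter held the AP-1 match. It had 31.9, 30.4, 23.8 and 17.1 at 0 h and 51.3, 58.2, 32.2 and 42.9 at 72 h, with no overlap and 0.75 ± 0.17. NR4A2, an early response nuclear receptor gene, had 5 loops from -0.03 to 0.72. Of these loop4221 (0.63 ± 0.21) and loop4226 (0.72 ± 0.25) were called, and each missed the threshold without 0 h replicate 1, at 0.56 and 0.56. Loop4221 also missed it without 0 h replicate 3, at 0.52, and loop4226 without 72 h replicate 3, at 0.56. FOSL2, of the AP-1 family, had 2 loops at 0.12 and 0.14, neither called, and those of ZFP36L2, MXD1, IL1B and SPRED2 were not called either.

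Of 12 genes of the HOXD cluster and its flanks 5 had a loop, with 9 loops, of which 5 were called higher and 0 lower at 72 h (55.6%, beside 33.6% of all tested loops), with a median of 0.57. The length offset ended the calls of loop4378 (0.83, and 0.45 with the offset) and loop4386 (0.44 and 0.24). Loop4386 also missed the threshold in DESeq2 and without 0 h replicate 4 (0.38) or 72 h replicate 4 (0.37). Loop4393, from HOXD9 and HOXD8 over 1020 kb, had 31.9, 26.6, 32.6 and 25.0 at 0 h, 26.5, 27.1, 22.6 and 26.5 at 6 h, and 53.1, 47.2, 63.4 and 51.8 at 72 h, with 0.84 ± 0.16 (SE), or 0.52 with the length offset. When a gene end within 10 kb of the anchor sufficed, the megakaryocyte and platelet list had 26 loops (8 higher and 2 lower), the erythroid list 3 (none called), the immediate early list 40 (12 higher and 6 lower) and the HOXD list 11 (5 higher) at 72 h. The shares called were 38.46%, 0%, 45.0% and 45.45% in this order, beside 33.6% of all tested loops. At 6 h under this rule loop4060 of the erythroid gene GYPC, which encodes glycophorin C, was called lower, with -0.62 ± 0.17 (SE, adjusted p 0.01076 in edgeR), as 1 of 3 erythroid loops. This call missed the threshold without 6 h replicate 2 (0.1301) and in DESeq2 (0.05238). The immediate early list then had 1 higher and 4 lower at 6 h (12.5%, beside 6.41% of all tested loops). The calls added to the ID2 loops were loop3545 and loop3546 of ZFP36L2 (-0.36 and -0.45) and loop4404 of NFE2L2 (-0.37). These 3 calls missed the threshold in DESeq2 and without 0 h replicate 1, with adjusted p from 0.05294 to 0.133. With the length offset in edgeR, loop3545 and loop4404 missed it too (adjusted p 0.2621 and 0.1261), as they did without 6 h replicate 2 (0.1228 and 0.2309). Total count scaling also ended the call of loop4404 (0.0514). All loops named for this rule were chosen after their values were seen.

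The 4 strongest loops of the chromosome spanned 50 kb to 140 kb and were lower at 72 h. Loop3433, of 50 kb at the microtubule gene MAPRE3, had a mean normalized count of 266 ± 17.4 at 0 h and 201 ± 18.9 at 72 h (SD), with -0.41 ± 0.09 (SE). Loop3590, from BCYRN1 to the adhesion gene EPCAM, had -0.43 ± 0.10, loop3892, at ANKRD39 and SEMA4C, -0.43 ± 0.10, and loop3358, at CYRIA, -0.24 ± 0.10, a call that missed the threshold without 0 h replicates 3 or 4 or 72 h replicates 2 or 3, at -0.23, -0.24, -0.20 and -0.23, and with total count scaling or the length offset, at -0.19 and -0.20 for loop3358. The offset moved loop3433 to -0.26 and loop3590 to -0.28, and both stayed called. The 3 longest tested loops spanned 3210 kb to 3360 kb and had 1.18 ± 0.30 (loop3824), 0.60 ± 0.26 (loop3826) and 0.24 ± 0.30 (loop4453), of which the first was called. With the length offset these were 0.66, 0.05 and -0.26, and none was called.

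In the authors' deposited table, 64 loops of chromosome 2 were classed as gained, 11 as lost and 1606 as static, so 85.3% of the classed loops were gained. Over all chromosomes the authors' deposited table had 1000 gained and 503 lost loops, or 66.5% gained. Of the loops above, loop3342, loop3568, loop3276, loop4632, loop4493, loop4393 and loop4562 were classed as gained and loop4502, loop3574, loop4890, loop3621 and loop3890 as lost in the authors' deposited table, and loop3952, loop4212 and loop4210 were classed as static with no deposited fold change. For loop4562, classed as gained, the authors' deposited table holds a log2 value of -0.64 for 6 h and one of 0.09 for 72 h.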

How the data were processed

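The authors deposited 1 table with raw contact counts per loop, per the file headers, with 30 columns that each stand for a technical replicate, beside log2 fold changes, adjusted p-values and a class of their own. Per the submitters' processing notes the build is hg38 and Juicer 1.5.6 and DESeq2 were used; the loop caller is not given in the sources used here. No background is subtracted from a count. Technical replicates were summed into 12 libraries, and no column was left unused.

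Counts were fitted over all loops with edgeR 4.0.16 in R 4.3.3 (TMM, filterByExpr with minimum count 10 and total 15, quasi-likelihood test, Benjamini-Hochberg adjustment over 24132 loops, threshold 0.05). Fold changes were computed with a prior count of 2. The loops named are the largest calls of each contrast, the strongest, the longest, those of the 3 anchors with the most loops and those of listed genes, plus the anchors at 155370001 and 104940001, added later. Members, lists and rules were chosen with earlier results of these data known. Alternatives were other scalings, no filter, DESeq2 1.42.0, a batch term, a replicate block, a length offset (loess, span 0.3), a threshold of 0.01 and leaving out libraries. The test was tried on simulated data.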

Additional observations from a re-analysis of the deposited data

Results flagged for a closer look

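In groups of 4 libraries at 0 h and 6 h, 14 of 186 groups examined had a library far from the other three, where chance gives about 1 in 20, or 9.3. The share of contacts on chromosome 2 at 0 h was 5.192% in its highest library, with the others between 5.083% and 5.102%. Among normalized counts at 0 h, the lowest library stood apart in loop3342 at LRATD1 (5.018, with the others from 14.24 to 14.78), loop3276 at ID2 (10.23, others 15.93 to 16.31) and loop3295 at KLF11 (37.63, others 59.12 to 60.11). The highest stood apart in loop3326 at TRIB2 (17.56, others 14.78 to 15.21).

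At 6 h the highest library stood apart in 5 loops. These were loop3342 (22.43, others 14.15 to 14.71), loop3574 of the PRKCE body (26.89, others 20.51 to 21.57), loop4764 at AP1S3 (24.13, others 11.77 to 13.08), loop3778 at DYSF (31.37, others 15.57 to 15.89) and loop4394 at HOXD8 (38.61, others 30.84 to 31.37). The lowest library stood apart in loop3281 at ID2 (13.08, others 19.3 to 19.81), loop4226 at NR4A2 (6.542, others 10.79 to 11.32), loop3540 at ZFP36L2 (54.29, others 68.22 to 69.34) and loop4393 at HOXD9 and HOXD8 (22.64, others 26.47 to 27.1). Of these, loop4764 lost its 6 h call without the library that stood apart.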

How the results depend on the processing

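The medians over chromosome 2 stayed above 0 in every setting run for all 3 comparisons. The number of chromosome 2 loops changed at 6 h against 0 h was 74, and it was 21 with DESeq2, 24 in replicates 1 and 2 only, 10 in replicates 3 and 4 only, 49 with the length offset, 22 at a threshold of 0.01 and from 28 to 75 without 1 library. For 72 h against 0 h it was 465, and 279, 304 and 207 with the first 3 of these, 295 at the threshold of 0.01 and from 371 to 492 without 1 library. Between 6 h and 72 h it was 350, and 134, 170 and 99 with the first 3, 160 at the threshold of 0.01 and from 253 to 367 without 1 library. At 6 h DESeq2 called 7 higher and 14 lower, against 42 and 32 in edgeR. The median log2 fold change moved beyond the replicate spread with total count scaling at 6 h (0.1151 from 0.0754) and at 72 h against 0 h (0.1949 from 0.1421). Between 6 h and 72 h it moved from 0.09258 to 0.08009 with no filter, 0.07123 in replicates 3 and 4 only and 0.0773 with the length offset. Without 1 library the medians ranged from 0.0588 to 0.07708, 0.1309 to 0.1517 and 0.08242 to 0.09695.

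Same-numbered libraries correlated at 0.0146 to 0.124 in their deviations, all above 0, and those of different numbers at -0.0738 to 0.0441. Same-numbered libraries thus shared a weak part of their deviations, and the main fits did not pair them. With the replicate number as a block, 93, 496 and 391 loops changed in the 3 comparisons, with medians of 0.07374, 0.1449 and 0.09341. Of the calls of single named loops, 11 of 12 at 6 h, 20 of 47 at 72 h against 0 h and 27 of 38 at 72 h against 6 h missed the threshold in at least 1 setting; the cause was not tested. At 72 h against 0 h DESeq2 did not call loop3274, loop3358, loop4211, loop3716, loop3722, loop4221, loop4226, loop4386, loop3395, loop4073 or loop3779 of the DYSF anchor. The length offset ended the calls of all of these but loop3722, loop4221 and loop3395. Depth limits long loops most, since their counts were lowest and 246 loops were not tested.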
